A study of Mus musculus with 4 samples.

Results

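The S100 calcium-binding proteins were followed across 4 arrays of Comma D beta, a mammary epithelial cell line of the mouse. The members were 10 listed genes, found by their symbol in the array annotation. Of these, 9 have probe sets of their own, 12 in all, and are described among 18194 genes of the whole table. The only probe set for S100a11, which encodes a partner of annexin A1, is annotated to several genes, so no value is given for that member. The 9 measured members are S100a1, S100a3, S100a4, S100a6, S100a8, S100a9, S100a10, S100a13 and S100a14.

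The cells were sorted by the surface marker Sca1 after culture without doxycycline (dox) or with dox at 100 ng/ml for 1 day. Biotin-labelled cRNA made from total RNA was hybridised. The groups were Sca1+ and Sca1- cells, each untreated and each with dox, and every group has 1 array. All groups come from the same immortal cell line, and the sources used here do not say what dox controls in it; the title of the series names Bcl11b. With 1 array per group no difference below has a replicate check, none was tested, and array noise cannot be told apart from an effect. The fractions of a treatment may also come from 1 culture.

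Small dimeric proteins with paired EF-hand loops make up the S100 family. On binding calcium most of them expose a hydrophobic face and dock onto target proteins, among them annexins and cytoskeletal proteins, and several are also released from cells and act as danger signals through receptors such as Ager and Tlr4. Most of their genes lie together on mouse chromosome 3, at either end of the epidermal differentiation complex, whose other genes build the cornified envelope of stratified epithelium. In epithelia, members of the family are known for responses to injury, inflammation and keratinocyte differentiation.

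Levels are the authors' log2 values, and the lowest value in the table is 3.32, the log2 of a linear level of 10, which was used as a floor. On each array this floor held 44.8% to 48.0% of all probe sets. A difference between a measured value and the floor is a lower bound, written "at least". A gene was called different at 2-fold or more, and "rose" and "fell" are used of called genes only, without replicate error. All 9 mammary epithelial markers, including Epcam, Krt14 and Trp63, were above the floor on every array. Of these 9, 3 fell with dox in both fractions and 0 rose, beside 8.56% and 5.29% of all genes analysed. The basal keratin gene Krt5 fell by 15.9-fold in Sca1+ and 8.76-fold in Sca1- cells. The tight-junction gene Cldn7 fell by 6.95-fold and 4.91-fold, and Krt8 by 3.32-fold and 3.89-fold. The gene for Sca1 was not analysed here, because the annotation used lists 0 probe sets under its symbol, Ly6a, so the fractions follow their labels. As another scaling, each array's median over the whole table, which lies close to the floor, was subtracted. This whole-table centring moved the median dox difference over all genes in Sca1+ cells from 0.03 to -0.16 and the median Sca1+ minus Sca1- difference without dox from -0.01 to 0.21.

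The promoters of the members on which the results turn are shown first, from the RefSeq table of assembly GRCm38.p6, which held 11 windows for 8 of the 10 members. Each window runs from 250 bases before to 50 after an annotated start and is written 5′ to 3′ on the strand of its gene. S100a1 and S100a13 are shown because their levels went opposite ways with dox although their windows overlap. Their annotated starts lie 105 bases apart and point away from each other. The 204 bases that both windows hold, in opposite orientation, are in capitals below. Of those bases, 59.3% are G or C, and they contain 7 CpG pairs. The S100a1 window is chr3:90514281-90514580 on the minus strand and the S100a13 window chr3:90514185-90514484 on the plus strand.
S100a1: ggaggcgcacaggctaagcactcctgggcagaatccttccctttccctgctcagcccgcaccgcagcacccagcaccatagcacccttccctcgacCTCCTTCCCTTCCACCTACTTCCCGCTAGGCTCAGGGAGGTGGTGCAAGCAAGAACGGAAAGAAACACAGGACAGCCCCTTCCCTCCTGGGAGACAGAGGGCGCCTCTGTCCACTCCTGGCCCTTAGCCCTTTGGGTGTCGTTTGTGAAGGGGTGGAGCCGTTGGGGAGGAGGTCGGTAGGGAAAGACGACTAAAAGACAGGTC
S100a13: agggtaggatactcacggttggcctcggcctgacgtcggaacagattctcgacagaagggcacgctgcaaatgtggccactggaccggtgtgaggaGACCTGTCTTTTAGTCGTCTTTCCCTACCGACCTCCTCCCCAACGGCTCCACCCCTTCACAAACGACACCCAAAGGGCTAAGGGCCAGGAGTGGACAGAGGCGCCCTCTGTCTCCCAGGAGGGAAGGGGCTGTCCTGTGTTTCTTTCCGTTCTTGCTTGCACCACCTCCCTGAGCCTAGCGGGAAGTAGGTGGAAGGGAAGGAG

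S100a8, S100a9 and S100a3 are shown because the first is the member that differed most between the Sca1 fractions, the next encodes its protein partner, and the last had the largest dox difference. Capitals mark matches to TATAAA or TTGCNNAA on either strand. The S100a8 window is chr3:90668821-90669120 (plus strand), the S100a9 window chr3:90695672-90695971 (minus strand), and the S100a3 window chr3:90588313-90588612 (plus strand). S100a3 has 4 annotated starts, and this one was chosen because the other 3 windows held no match; the array does not show which start was in use.
S100a8: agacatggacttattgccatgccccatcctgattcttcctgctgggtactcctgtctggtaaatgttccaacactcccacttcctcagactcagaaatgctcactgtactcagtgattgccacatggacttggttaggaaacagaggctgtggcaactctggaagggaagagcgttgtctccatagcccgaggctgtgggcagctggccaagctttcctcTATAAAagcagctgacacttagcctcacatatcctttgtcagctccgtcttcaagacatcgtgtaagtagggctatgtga
S100a9: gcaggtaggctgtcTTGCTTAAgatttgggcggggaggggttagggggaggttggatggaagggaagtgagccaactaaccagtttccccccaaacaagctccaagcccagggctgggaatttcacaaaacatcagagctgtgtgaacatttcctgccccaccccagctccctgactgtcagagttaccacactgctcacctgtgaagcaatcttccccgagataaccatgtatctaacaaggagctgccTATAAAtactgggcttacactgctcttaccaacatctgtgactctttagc
S100a3: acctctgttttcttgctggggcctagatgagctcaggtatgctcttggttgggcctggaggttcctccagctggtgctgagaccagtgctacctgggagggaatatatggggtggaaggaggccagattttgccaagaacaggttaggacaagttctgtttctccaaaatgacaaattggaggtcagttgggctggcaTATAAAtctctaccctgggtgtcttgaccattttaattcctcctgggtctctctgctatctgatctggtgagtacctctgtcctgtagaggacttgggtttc

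TATAAA, a motif added after the data were seen, began 30 bases before the annotated start of S100a8, 31 before that of S100a4 and 52 before this start of S100a3, and at the annotated start base of S100a9. Of 32851 promoter windows in the table, 13.6% held it. The rest of the 11 windows for the members, among them the other S100a3 starts, held no match. The S100a3 window was shown for its match, and an excess over the share of all windows was not tested. TTGCNNAA, part of the site bound by C/EBP factors, was found in the S100a9 window, 236 bases before the start, and in 10.8% of all windows. TGANTCA, the AP-1 site, was present in 7.81% of windows and GGGNNTTCC, an NF-kB-like site, in 5.82%. Among the members' windows, TGANTCA was found in that of S100a11, which has 2 matches, and GGGNNTTCC in none. The motifs overlap no other searched motif in these windows, and a match describes the letters only.

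With dox, 4 of the 9 measured members were called in both Sca1 fractions and in the same direction. S100a3 and S100a9 rose, and S100a1 and S100a14 fell. In Sca1+ cells, 2 of 9 members rose, against 8.47% of all 12264 genes analysed, and 2 were lower, against 12.9%. In Sca1- cells the counts were again 2 higher, against 7.20% of all genes, and 2 lower, against 11.3%. Genes called in the same direction in both fractions made up 5.29% (higher) and 8.56% (lower) of all genes. The median dox difference of the members was 0.63 (log2) in Sca1+ and 0.46 in Sca1- cells, beside 0.03 and 0.02 over all genes. The Sca1+ median rests on members limited by the floor: it was -0.18 over the 7 members above the floor on all arrays, -0.09 over 8 with the floor raised to a linear level of 50, and 0.23 over 8 with a highest array of 100 or more. All 9 members passed the filter on low values, but S100a3 and S100a9 passed it through the dox arrays, so that these had to be higher there. Whole-table centring took the share of higher genes among those called in Sca1+ cells from 39.7% to 27.3%.

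**Figure D1:**
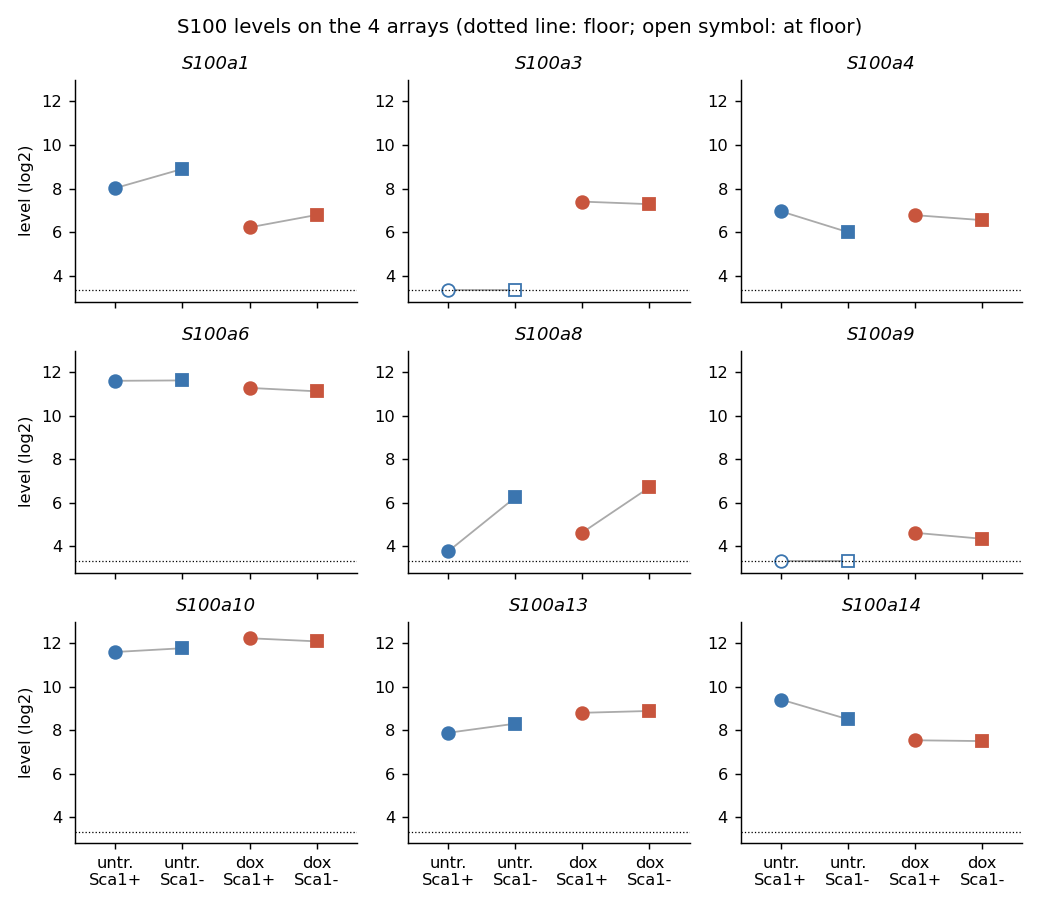
Log2 level of the main probe set of each of the 9 measured S100 genes (vertical axis) on the 4 arrays (horizontal axis; circles Sca1+, squares Sca1-; blue untreated, red dox; 1 array per point). S100a3 and S100a9 lay at the floor of 3.32 (dotted, open symbols) on both untreated arrays, and S100a8 was above its Sca1+ level in Sca1- cells with and without dox.

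S100a3 encodes a cysteine-rich, zinc-binding member known from the hair cuticle. It read 3.32 in untreated Sca1+ cells, 3.32 in untreated Sca1- cells, 7.40 in dox Sca1+ cells and 7.28 in dox Sca1- cells (log2). Both untreated arrays were thus at the floor and both dox arrays well above it. With dox the gene rose at least 16.9-fold in the Sca1+ fraction and at least 15.5-fold in the Sca1- fraction. By these bounds, 24 of the 12264 genes had a larger dox difference in Sca1+ cells and 28 in Sca1- cells. The fractions differed little on the dox arrays, by 0.12 (log2).

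S100a9 and S100a8 encode the subunits of calprotectin, an antimicrobial, metal-chelating heterodimer of neutrophils and inflamed epithelia. S100a9 read 3.32 on both untreated arrays, 4.63 in dox Sca1+ cells and 4.35 in dox Sca1- cells. It rose at least 2.47-fold and at least 2.04-fold with dox, which puts it just past the threshold in Sca1- cells, at linear levels of 24.7 and 20.4 against a floor of 10. After quantile normalization its difference in Sca1- cells was 0.98 (log2), short of the threshold. S100a8 read 3.77 in untreated Sca1+, 6.25 in untreated Sca1-, 4.64 in dox Sca1+ and 6.71 in dox Sca1- cells. Its dox differences, 0.87 in Sca1+ and 0.46 in Sca1- cells, were under 2-fold.

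S100a1, a regulator of calcium handling and contraction in muscle, was covered by a pair of probe sets. The main one, 1419814_s_at, read 8.02 in untreated Sca1+, 8.90 in untreated Sca1-, 6.21 in dox Sca1+ and 6.79 in dox Sca1- cells. Both dox arrays were below both untreated arrays, and within each treatment the Sca1+ array was the lower. It fell with dox in both fractions: the difference was -1.81 (log2) in Sca1+ cells and -2.12, a 4.33-fold fall, in Sca1- cells. The other probe set, 1417421_at, read 6.46, 7.07, 4.63 and 5.11 in the same order and gave 3.55-fold and 3.88-fold lower levels. The suffix of the main probe set marks one whose probes can match several transcripts, which the other does not carry, and both gave the same calls.

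S100a13, the divergent neighbour of S100a1 in the windows above, takes part in the release of Fgf1 and Il1a from cells, both of which lack a signal peptide. It read 7.88 in untreated Sca1+, 8.30 in untreated Sca1-, 8.80 in dox Sca1+ and 8.89 in dox Sca1- cells. Both dox arrays lay above both untreated arrays, opposite to S100a1. The dox differences of 0.92 in Sca1+ and 0.58 in Sca1- cells (log2) were under the threshold. They kept their sign under each of the 3 other scalings.

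S100a14, a member of epithelia linked to cell motility, read 9.41 in untreated Sca1+, 8.51 in untreated Sca1-, 7.54 in dox Sca1+ and 7.50 in dox Sca1- cells. The untreated arrays differed from each other and the dox arrays hardly did. The gene fell 3.66-fold with dox in Sca1+ cells and 2.00-fold in Sca1- cells. The second value lies on the threshold: after whole-table centring it was -0.97 (log2) and no longer called.

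**Figure D2:**
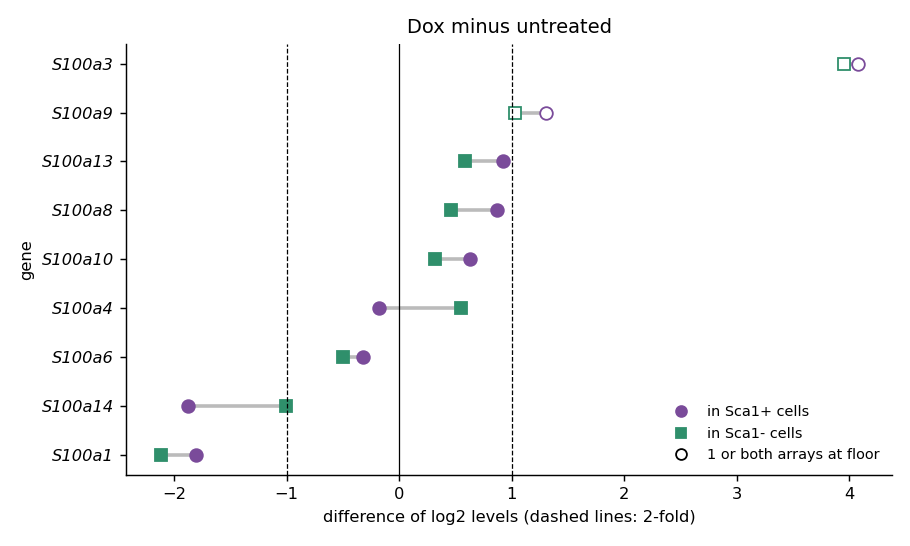
Dox minus untreated difference of log2 levels (horizontal axis) for each measured S100 gene (vertical axis, ordered by mean difference) in Sca1+ cells (circles) and Sca1- cells (squares); dashed lines mark 2-fold and open symbols a bound set by the floor. S100a3 stands at 4.08 and 3.96, S100a1 at -1.81 and -2.12, and S100a4 alone has differences of opposite sign.

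S100a10 forms a tight complex with annexin A2 at the inner face of the plasma membrane and, unlike most of the family, does not bind calcium. Its main probe set, 1416762_at, read 11.60 in untreated Sca1+, 11.77 in untreated Sca1-, 12.23 in dox Sca1+ and 12.09 in dox Sca1- cells. Both dox arrays were above both untreated arrays, with differences of 0.63 in Sca1+ and 0.32 in Sca1- cells, under 2-fold. The table's highest value was 12.76, so this probe set lay near the top of the scale, where a change can be compressed; whether it was compressed was not tested. A further bright probe set, 1456642_x_at, gave 0.47 and 0.15. The dimmer 1439348_at read 5.76, 6.64, 7.29 and 8.03 in the order given above, a dox difference of 2.90-fold upward in the Sca1+ and 2.61-fold upward in the Sca1- fraction. The probe sets of this gene thus share the direction but not the size.

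S100a6, also called calcyclin, is a growth-associated member that binds Cacybp and annexins. It read 11.61 in untreated Sca1+, 11.63 in untreated Sca1-, 11.29 in dox Sca1+ and 11.13 in dox Sca1- cells. Its dox differences, -0.33 and -0.50, were under the threshold. S100a4 binds non-muscle myosin heavy chain (Myh9) and is known for cell motility and as a marker of fibroblast-like cells. It read 6.95 in untreated Sca1+, 5.99 in untreated Sca1-, 6.77 in dox Sca1+ and 6.55 in dox Sca1- cells. The array that stands apart is untreated Sca1-, the lowest. The dox difference was -0.18 in Sca1+ and 0.55 in Sca1- cells, both under 2-fold.

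Between the Sca1 fractions, 1 of the 9 measured members was called, and it was called both without and with dox. That gene was S100a8, lower in Sca1+ cells: 5.59-fold without dox and 4.21-fold with dox. Over all genes, 3.33% were at least 2-fold lower in Sca1+ cells without dox, 2.98% with dox and 0.881% both times; for higher genes the shares were 3.07%, 2.52% and 1.08%. The median difference of the members was -0.02 (log2) without dox and 0.12 with dox, beside -0.01 and -0.03 over all genes. Without dox, 31 genes had a more negative difference than S100a8, and with dox 33. The linear levels behind it were low, 13.6 and 76.3 without dox and 24.9 and 105 with dox in Sca1+ and Sca1- cells. With the floor raised to a linear level of 50 its difference without dox was -0.61 and not called. Its only probe set, 1419394_s_at, is of the kind whose probes can match several transcripts. Whole-table centring took the share of higher genes among those called from 48.0% to 70.0% without dox and from 55.0% to 65.8% for those called both times.

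The remaining Sca1 differences were under the threshold. S100a4 and S100a14 were at 0.96 and 0.91 without dox and at 0.23 and 0.04 with dox, and whole-table centring put the former values at 1.18 and 1.13, past the threshold. S100a1 stood at -0.88 and -0.57, with the same sign in its other probe set (-0.61 and -0.49). S100a13 stood at -0.42 and -0.08. For S100a6 (-0.02 and 0.16) and S100a10 (-0.17 and 0.14) the sign without dox turned positive after that centring, and for S100a6 also after quantile normalization. The bright S100a10 probe set 1456642_x_at stood at -0.16 and 0.15, close to the main one. The dimmer S100a10 probe set, 1439348_at, stood at -0.88 and -0.73, and with the probe sets of that gene averaged the values were -0.40 and -0.15. S100a3 and S100a9 were at the floor in both untreated fractions, so no difference without dox is given for them.

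**Figure D3:**
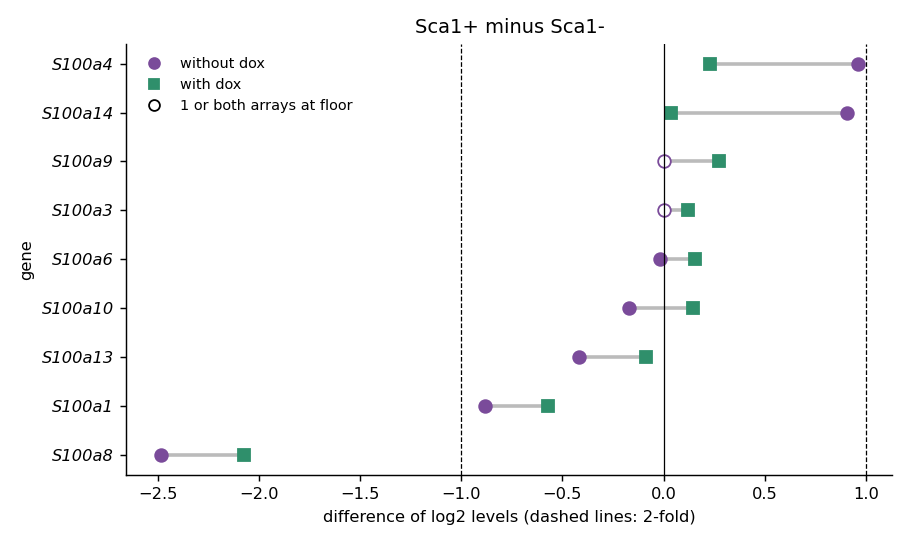
Sca1+ minus Sca1- difference of log2 levels (horizontal axis) for each measured S100 gene (vertical axis) without dox (circles) and with dox (squares); dashed lines mark 2-fold and open circles at 0 are genes at the floor on both untreated arrays. S100a8 lies at -2.48 and -2.08, and the other 8 genes lie between the dashed lines.

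The difference of the dox effects, Sca1+ minus Sca1-, was under 1 (log2) for all 9 measured members as deposited. It was most negative for S100a14 (-0.87) and S100a4 (-0.73) and most positive for S100a8 (0.41). After whole-table centring the value for S100a14 was -1.10. For S100a3 and S100a9 the differences of 0.12 and 0.28 compare bounds that start from the same floor.

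Other members of the family gave few values. Of 8 further S100 genes listed, 5 had a probe set of their own, and S100a5, S100a7l2 and S100g lay at the floor on all 4 arrays. S100a16, a widely expressed member, read 10.06 in untreated Sca1+, 10.26 in untreated Sca1-, 10.32 in dox Sca1+ and 10.56 in dox Sca1- cells, with no called difference. S100b, best known from glia, read 5.19 in untreated Sca1- cells and 3.32 on the other 3 arrays. S100-fused-type proteins, large relatives that carry an S100 domain and are made in the hair follicle and cornified layer, had 5 genes with a probe set. Hrnr, Flg and Tchhl1 lay at the floor on all arrays and Rptn at or next to it. Tchh, trichohyalin of the hair follicle's inner root sheath, read 5.48 in untreated Sca1+, 6.51 in untreated Sca1-, 7.28 in dox Sca1+ and 7.95 in dox Sca1- cells. With dox it rose 3.47-fold in the Sca1+ and 2.72-fold in the Sca1- fraction.

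Receptors of extracellular S100 proteins were measured beside their ligands. Of 7 genes, all with a probe set, 5 were analysed and none was called in the same direction in both fractions with dox. Over all genes, 5.29% were called higher and 8.56% lower in both. Ager, the receptor for S100 proteins known as RAGE, lay at the floor on all 4 arrays, as did the scavenger receptor gene Cd36. Tlr4, a receptor of calprotectin, read 6.57 in untreated Sca1+, 6.87 in untreated Sca1-, 6.08 in dox Sca1+ and 6.37 in dox Sca1- cells, with dox differences of -0.49 and -0.50. Bsg, which encodes basigin, a receptor of S100a9, was at -0.43 and -0.41, and Nptn, a receptor of S100a8, at 0.28 and 0.22. Alcam rose 2.74-fold with dox in Sca1+ cells and was at 0.54 (log2) in Sca1- cells. Mcam read 5.86, 3.32, 5.31 and 4.50 in the same order of arrays, so that without dox the Sca1+ level was at least 5.79-fold above the Sca1- level.

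Intracellular partners mostly stayed under the threshold, as did most genes. Of 9 measured, 1 fell in both fractions and 0 rose, beside 8.56% and 5.29% of all genes. Anxa2, which encodes the annexin that binds S100a10, read 11.65 in untreated Sca1+, 11.70 in untreated Sca1-, 12.21 in dox Sca1+ and 12.06 in dox Sca1- cells. Its dox differences of 0.56 and 0.35 stand beside 0.63 and 0.32 for S100a10, and for both genes the dox arrays were the higher ones. Ahnak, a giant scaffold protein bound by that complex, was at 0.64 and 0.20, Anxa1, the partner of S100a11, at -0.01 and -0.50, Cacybp at 0.53 and 0.39 and Myh9 at 0.18 and 0.11. Anxa6 was at 0.92 and 0.59, Iqgap1, a scaffold of the cytoskeleton, at 0.65 and 0.43, and the cytokine gene Il1a at -0.12 and 0.04. Fgf1, the growth factor released with S100a13, read 5.87 in untreated Sca1+, 4.81 in untreated Sca1-, 3.32 in dox Sca1+ and 3.41 in dox Sca1- cells. It fell at least 5.86-fold in Sca1+ and 2.64-fold in Sca1- cells, while S100a13 had differences above 0.

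Of 11 annexin genes with a probe set, 8 were analysed, and with dox 1 rose and 1 fell in both fractions. Over all genes, 5.29% rose and 8.56% fell in both. Anxa8 fell 8.29-fold and 5.70-fold, and Anxa7 rose 3.07-fold and 2.50-fold. The annexins' median dox differences were 0.27 in Sca1+ and -0.07 in Sca1- cells. Among other EF-hand proteins, 24 genes had a probe set and 19 were analysed. Of those, 2 rose in both fractions and 0 fell, beside the same shares of all genes. Nucb2, a Golgi calcium-binding protein and precursor of nesfatin, was 4.46-fold and 2.97-fold higher, and Efhd1, a mitochondrial EF-hand protein, at least 4.78-fold and 2.81-fold higher, both bounds. The list's medians, -0.04 and 0.01, lay next to those of all genes.

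S100a8 was set beside other antimicrobial and alarmin genes, of which 11 of 14 with a probe set were analysed. Between the fractions, 4 of them were lower in Sca1+ cells both without and with dox and 1 was higher. Over all genes these shares were 0.881% and 1.08%. Lcn2, the iron-siderophore-binding lipocalin, read 9.89 in untreated Sca1+, 12.03 in untreated Sca1-, 5.23 in dox Sca1+ and 10.09 in dox Sca1- cells, 4.41-fold and 29.1-fold lower in Sca1+ cells. Cxcl1, a neutrophil-attracting chemokine, was 5.75-fold and 4.34-fold lower there, Hp 7.54-fold and at least 5.78-fold lower, and Ltf 3.38-fold and 2.00-fold lower. Defb1, a defensin, was the gene higher in Sca1+ cells. With dox, 5 genes of this list fell in both fractions (Lcn2, Slpi, Ltf, Cxcl1 and Hp) and 1 rose, beside 8.56% and 5.29% of all genes. The riser was the alarmin Il33, at the floor on both untreated arrays and higher with dox by bounds of 8.27-fold and 5.65-fold. The list's median dox differences were -1.59 and -1.94, while those of S100a8 were 0.87 and 0.46. S100a8 thus had the sign of Lcn2, Cxcl1, Hp and Ltf between the fractions and the opposite sign with dox, where its own differences were under 2-fold. In Sca1+ cells that sign rests on linear levels of 13.6 and 24.9, and with the floor raised to 50 the dox difference there was 0.

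Markers of cells known for these genes were read on the same arrays. Of 13 neutrophil and myeloid markers with a probe set, Ptprc, Itgam, Mpo, Fcgr3 and Tyrobp lay at the floor on all 4 arrays and 2 were above it on all. Those were Cd14, which read 7.66 and 10.31 in untreated and 5.35 and 6.92 in dox cells (Sca1+ and then Sca1-), and Cd68, which read 3.37, 3.76, 6.16 and 6.16 in that order. The list's summed linear levels ran from 231 in dox Sca1+ to 1394 in untreated Sca1- cells. That difference was carried by Cd14, at linear levels of 40.8 and 1270 on those arrays. Of 8 fibroblast markers, Col1a1, Col3a1 and Pdgfrb were at the floor on all arrays. Their summed linear levels were 88.9 and 105 without dox and 762 and 434 with dox, a difference carried by Dcn. Of 10 keratinocyte differentiation markers, Krt1, Krt13 and Ivl were at the floor on all arrays. Of the 5 analysed, 1, Sprr1a, rose in both fractions and 0 fell, beside 5.29% and 8.56% of all genes. The sums were 1951 and 1280 without and 4044 and 3541 with dox. That difference was carried by Sprr1a, without which the sums were 1921 and 1254 without and 938 and 845 with dox. Most of those remaining sums was Krt6a, at linear levels of 1752 and 1056 without and 683 and 584 with dox. Krt6a fell 2.56-fold with dox in Sca1+ cells and was at -0.85 (log2) in Sca1- cells. Krt10 was at 0.76 and 0.58, Lor at 0.83 and 0.83, and Tgm3 at 0.75 and -0.17. The list's median dox differences were 0.76 and 0.58. In the same Sca1+ and Sca1- order, the luminal keratin gene Krt8 read 7.67 and 9.36 without dox and 5.94 and 7.40 with dox. The part of any of these in the S100 values was not tested. T-cell, endothelial and adipocyte markers had 0 genes above the floor on all arrays.

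The position of the genes was read from RefSeq gene order. Between S100a1 and S100a10, the outermost S100 genes of the interval on chromosome 3, lie 55 protein-coding genes that are not of the S100a series, of which 36 had a probe set and 12 passed the filter on low values. Of those 12, 6 (Sprr1a, Sprr1b, Lce1f, Lce3c, Lce3f and Tchh) rose in both fractions and 0 fell, beside 5.29% and 8.56% of all genes. Of the 6, 5 encode parts of the cornified envelope. The other 24 with a probe set did not pass the filter, and most were at the floor throughout, so genes that passed through the dox arrays had to be higher there. Among the 6 risers, Lce1f, Lce3c and Lce3f were at the floor on both untreated arrays and passed in this way. Lce1f read 3.32 on both untreated arrays, 10.69 in dox Sca1+ and 9.81 in dox Sca1- cells. Sprr1a read 4.91, 4.72, 11.60 and 11.40. The called S100 genes did not form one block. Along the chromosome S100a1 fell, S100a13 was under the threshold, S100a14 fell, S100a16 was under it and S100a3 rose. Next came S100a4, S100a6 and S100a8, all under the threshold, and then S100a9, which rose. S100a10, at the far end, was under the threshold.

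**Figure D4:**
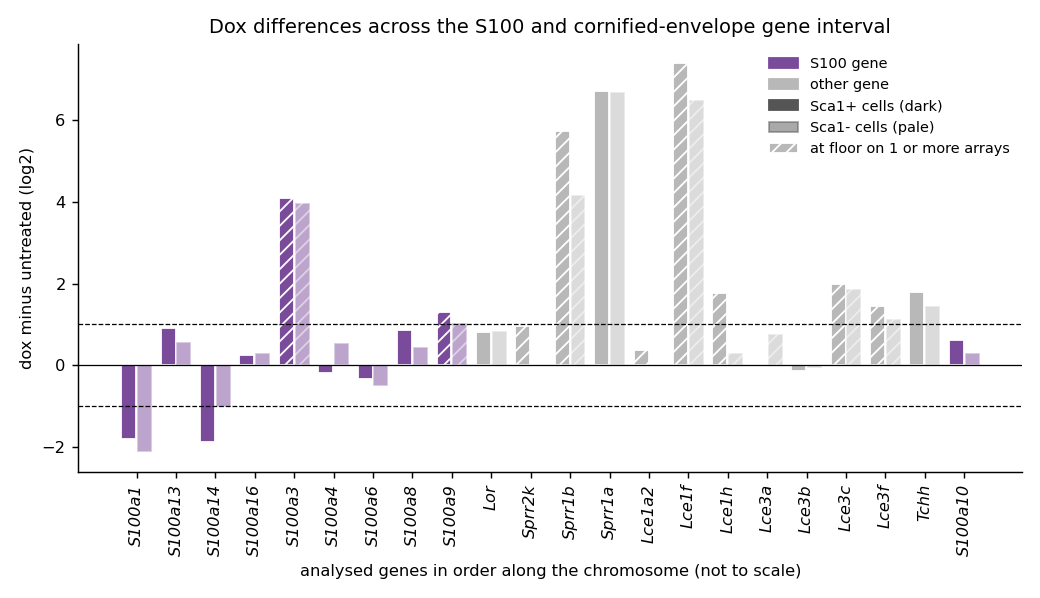
Dox minus untreated difference of log2 levels (vertical axis) of the 22 analysed genes between S100a1 and S100a10, in their order along the chromosome (horizontal axis, not to scale); purple S100 genes, grey others, dark bars Sca1+ and pale bars Sca1- cells, hatched where the gene was at the floor on 1 or more arrays, dashed lines 2-fold. S100a1 and S100a14 at the left lie below -1 in both fractions, and S100a3, S100a9 and 6 other genes lie above 1 in both. Lce1h lies above 1 in Sca1+ cells only (1.78).

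The genes whose profile over the 4 arrays was most like that of S100a1, the member with the largest absolute mean dox difference among those above the floor on all arrays, were Mettl26, Homer2, Ppm1h and Fads2. Likeness was the Euclidean distance between log2 profiles, each centred on its own mean, over 10260 genes, and it was 0.21, 0.31, 0.32 and 0.32. Mettl26 read 7.47 in untreated Sca1+, 8.14 in untreated Sca1-, 5.71 in dox Sca1+ and 6.28 in dox Sca1- cells, and its dox differences were -1.77 and -1.87. With 4 points per profile, close matches are a description only.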

How the data were processed

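Biotin-labelled cRNA of 4 sorted samples was hybridised to Affymetrix arrays, per the labels' protocols, with 1 array per group. The deposited table holds log2 expression levels made by the authors for 45101 probe sets; the sources used here do not give how they were summarized and scaled. Values share a minimum at the log2 of 10, so low levels were cut off there and folds against it are bounds.

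Probe sets were named from GEO's platform annotation; 34958 have 1 gene symbol, and 932 with several were not used. A gene was represented by its probe set of highest mean over the arrays and analysed where at least 1 array reached the pooled median of 3.63. Differences of log2 levels were counted at 2-fold or more. With 1 array per group there is no test, SD or p-value, and the number of arrays limits the precision. Promoter windows came from RefSeq, GRCm38.p6. The counting code was run on simulated data with an assumed noise, which cannot show how reliable the calls on these arrays are. Python 3.11.15 and pandas 2.3.3 were used.

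Members and gene lists were chosen with earlier results of these data known. The rule for named genes took all members, all measured receptors, partners and other S100 genes, the up to 6 largest dox differences shared by both fractions in each other list, and the 4 profiles nearest to 1 member; other genes are named for context after their values were seen. Alternatives were other scalings, filters, floors, thresholds and the mean of a gene's probe sets.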

Additional observations from a re-analysis of the deposited data

Results flagged for a closer look

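S100a4 had dox differences of opposite sign in the fractions, -0.18 in Sca1+ and 0.55 in Sca1- cells (log2), which differ by -0.73. The Sca1+ minus Sca1- difference of S100a6 was -0.02 without and 0.16 with dox, which differ by -0.18, and that of S100a10 was -0.17 and 0.14, which differ by -0.32. Each was singled out because its sign differs between the strata, each with 1 array per group, and none of these differences was tested. All of the values are under 2-fold. For S100a10 the signs did not differ with its probe sets averaged (-0.40 and -0.15), in probe set 1439348_at (-0.88 and -0.73) or with each array centred on its whole-table median (0.05 and 0.14). The signs did differ in the bright probe set 1456642_x_at (-0.16 and 0.15) and after quantile normalization (-0.05 and 0.04). The same held with arrays centred on probe sets of a mean linear level of 100 or more (-0.19 and 0.19).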

How the results depend on the processing

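No paired analysis was possible because each group has 1 array, and no array could be left out. Of 340 member values recomputed under other settings, 332 kept their side of the 2-fold threshold and moved by at most 0.5 if uncalled. None of the called ones changed sign. Many of the 340 could not change, so the count overstates stability. A filter leaves a member's own difference as it was. Averaging probe sets can move only S100a1 and S100a10, which have several. Among genes that lie above the floor on every array, S100a3 and S100a9 leave the set and the members called with dox numbered 2 in Sca1+ cells, 2 in Sca1- cells and 2 in both, against 4 each. With each array centred on its whole-table median, 3 members instead of 1 were called between untreated fractions (S100a4, S100a8 and S100a14), and 1 instead of 0 for the difference of dox effects. With the floor at a linear level of 50, 0 were called between untreated fractions and 0 both without and with dox, instead of 1. At a 1.5-fold threshold 7 members were called with dox in Sca1+ cells, 4 between untreated fractions and 2 for the difference of dox effects. At 3-fold, 2 were called with dox in Sca1- cells and 2 in both. Over all genes, the 1039 higher and 1581 lower with dox in Sca1+ cells became 579 and 1042 with a highest array of 100 or more, 553 and 978 with the raised floor, 2350 and 2549 at 1.5-fold and 409 and 802 at 3-fold. In Sca1- cells 883 and 1383 became 530 and 893, 499 and 807, 2059 and 2378, and 346 and 654 under the same settings. Between untreated fractions 376 and 408 became 223 and 177, 207 and 163, 1039 and 1106, and 71 and 152, with 643 higher after that centring and 260 lower above the floor. Between dox fractions 309 and 366 became 196 and 236, 150 and 122, 845 and 1102, and 143 and 85, with 232 lower when probe sets were averaged. Of genes called both times, 649 higher and 1050 lower with dox became 366 and 626 with the raised floor, 1448 and 1835 at 1.5-fold and 254 and 432 at 3-fold, with 417 higher at a highest array of 100 or more; the 132 and 108 between fractions became 81 and 42, 358 and 347, and 18 and 36, with 71 lower when probe sets were averaged. The filters and thresholds change these counts by their construction; for the centring the cause was not tested. The floor limits S100a3, S100a8 and S100a9 most.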
